A study of Mus musculus with 6 samples.

Results

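Transcripts of homologous recombination, the Fanconi anemia pathway and the DNA damage checkpoint were measured through 42 genes, taken by gene symbol from a list of factors of these pathways. The list was drawn up with earlier results of these data known. All 42 were found among the 22116 rows of the table that carry a gene name, and all 42 were among the 12288 genes that passed the filter on low counts. RNA-seq was performed on 4T1 cells, a mouse mammary carcinoma line used as a model of triple-negative breast cancer, to find transcripts that differ when the histone demethylase KDM3B is inhibited. One group of 3 libraries came from cells given DMSO, the vehicle, and the other group of 3 from cells given 10 µM P3FI-90, a KDM3B inhibitor, both for 24 h. Both groups are the same cultured line, and the labels name no genetic difference between them. The labels do not say whether the 3 libraries of a group came from separate cultures, so the p-values measure only the spread between these libraries, which may be technical.

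Homologous recombination repairs a broken chromosome by copying the intact sister chromatid. The MRN complex (MRE11, RAD50 and NBS1) and CtIP trim the broken ends, and BRCA1 and PALB2 recruit BRCA2, which prepares the exposed strand for the search for its match. The Fanconi core complex ubiquitinates FANCD2 and FANCI where the strands of DNA are crosslinked, and the kinases ATM and ATR pass the signal of breaks and stalled forks to CHK2 and CHK1. Loss of BRCA1 or BRCA2 is a known cause of breast cancer, and triple-negative tumors are often deficient in this pathway.

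Many genes of this group are transcribed in S phase under E2F factors, so the stretch of 250 bases before the start site is shown for 4 of them, chosen after their values were seen. Rad51ap1 had the largest rise of the 42 genes, Chek2 the largest fall, and Mdc1 and Brca2 are shown because they rose and, like Chek2, hold an E2F motif. The sequences and positions are those of RefSeq on GRCm38.p6, read 5′ to 3′ on the strand of the gene. Capitals mark exact matches on either strand to an E2F motif (TTTCCCGC, TTTCGCGC, TTTGCCGC or TTTGGCGC) or to a CCAAT box (CCAAT). The other motif that was searched, the cell cycle homology region (TTTGAA), was not found in these stretches.
Rad51ap1 (chr6:126939588-126939837, minus strand): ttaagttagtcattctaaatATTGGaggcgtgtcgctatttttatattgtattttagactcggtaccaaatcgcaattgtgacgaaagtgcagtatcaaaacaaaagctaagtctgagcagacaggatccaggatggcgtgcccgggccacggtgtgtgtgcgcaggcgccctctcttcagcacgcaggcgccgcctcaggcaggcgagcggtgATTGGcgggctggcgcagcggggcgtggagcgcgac
Mdc1 (chr17:35841248-35841497, plus strand): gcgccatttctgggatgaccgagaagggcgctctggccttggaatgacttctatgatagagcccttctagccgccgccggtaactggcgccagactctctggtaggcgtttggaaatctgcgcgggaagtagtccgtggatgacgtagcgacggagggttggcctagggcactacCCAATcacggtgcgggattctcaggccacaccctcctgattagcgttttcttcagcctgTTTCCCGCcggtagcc
Brca2 (chr5:150522371-150522620, plus strand): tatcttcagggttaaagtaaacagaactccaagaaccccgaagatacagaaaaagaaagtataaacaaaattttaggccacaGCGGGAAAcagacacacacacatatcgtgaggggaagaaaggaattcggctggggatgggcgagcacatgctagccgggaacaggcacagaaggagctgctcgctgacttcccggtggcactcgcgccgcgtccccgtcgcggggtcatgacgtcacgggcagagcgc
Chek2 (chr5:110839733-110839982, plus strand): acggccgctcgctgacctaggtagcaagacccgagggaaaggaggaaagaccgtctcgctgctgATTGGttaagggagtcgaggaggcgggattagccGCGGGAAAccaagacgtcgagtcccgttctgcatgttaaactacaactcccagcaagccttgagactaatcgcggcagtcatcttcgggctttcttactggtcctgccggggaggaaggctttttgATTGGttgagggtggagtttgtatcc

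The promoter table, with 300 bases per entry of which 50 follow the start, held 34 of the 42 genes. Rad50, Nbn, Rbbp8, Exo1, Rad54b, Xrcc2, Fancd2 and Usp1 had no entry. An E2F motif was present in 8 of the 34 genes (23.53%), against 2.605% of the 27025 genes of the table. The 8 genes were Bard1, Brca2, Chek2, Clspn, Fancg, Mdc1, Rad51c and Topbp1, of which 6 rose and 2, Chek2 and Rad51c, fell. Of the 9 genes with an entry that changed by more than 1 on the log2 scale, 3 held an E2F motif. These are Mdc1, Brca2 and Chek2, all shown above, so the stretches shown are not typical of the 9. Of all 34 genes with an entry, 18 rose, 11 fell and 5 did not pass, and a link between motif and direction was not tested. In Mdc1 the motif began 16 bases before the start site, in Chek2 152 bases and in Brca2 168 bases before it. A CCAAT box was present in 21 of 34 genes (61.76%), against 41.06% of all genes. The start site of the Slx4 entry, which is among the 21, is uncertain, and without it the count was 20 of 33 (60.61%). The cell cycle homology region was present in 4 of 34 (11.76%), against 20.23% of all genes. These matches are letters found in a window and describe the sequence only.

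Each library held between 31327094 and 37395732 counts on named genes, and all results are given as normalized counts, which are read counts scaled to a common effective library size by edgeR's TMM method. TMM factors averaged 0.928 in DMSO and 1.08 in P3FI-90 libraries, so scaling by total counts alone raises every log2 fold change, by 0.21 for the median gene. All 6 epithelial markers (Epcam, Cdh1, Krt7, Krt8, Krt18 and Krt19) were detected, and all 6 fell, with a summed level of 149858 to 158390 normalized counts in DMSO and of 62410 to 65543 in P3FI-90 libraries. The 6 leukocyte markers summed to 470 to 562 in DMSO and 198 to 258 in P3FI-90 libraries, nearly all of it Cd14, with Nkg7 at 0. The 6 fibroblast markers summed to 1411 to 1441 and 972 to 1065, nearly all of it Pdgfra, with Lum and Thy1 at 0, and the 6 endothelial markers to at most 13.3 and 33.7, with Erg and Vwf at 0. The part of these marker changes in the results was not tested. Kdm3b itself, whose protein is the target of the inhibitor, had a log2 fold change of 0.13 (SE 0.043, edgeR adjusted p = 0.0169).

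After P3FI-90 treatment, 22 of the 42 genes rose, 12 fell and 8 did not pass (edgeR's quasi-likelihood test, threshold 0.05 after Benjamini-Hochberg adjustment across all genes tested). The rises by more than 1 on the log2 scale were in the genes for BRCA1, BRCA2, RAD50, FANCM, ATM, ATR, MDC1, SLX4 and RAD51AP1, whereas the only fall of that size was that of Chek2. As a background, 39.9% of all genes tested rose and 39.4% fell, so that 52.4% of these genes rising and 28.6% falling stood in a comparison in which most genes changed. By more than 1 on the log2 scale 9 genes rose, against 12.7% of all genes, and 1 fell, against 10.6%. The 3 P3FI-90 libraries lay entirely above the 3 DMSO libraries for 23 genes, against 41% of all genes, and entirely below them for 12, against 40.2%. The median log2 fold change of the 42 genes was 0.19, with a range from −1.24 to 1.71, and that of all genes tested was 0.013. Scaling by total counts alone gave 29 higher and 6 lower genes, where 6177 of all 12288 genes were higher and 3641 lower. Removing the trend of fold change with transcript length and GC content gave 18 higher and 18 lower. Under that alternative 4100 of all 12263 genes were higher and 5546 lower. Because RNA was taken from whole cultures, fewer cells in a given state and less RNA per cell cannot be told apart.

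**Figure D1:**
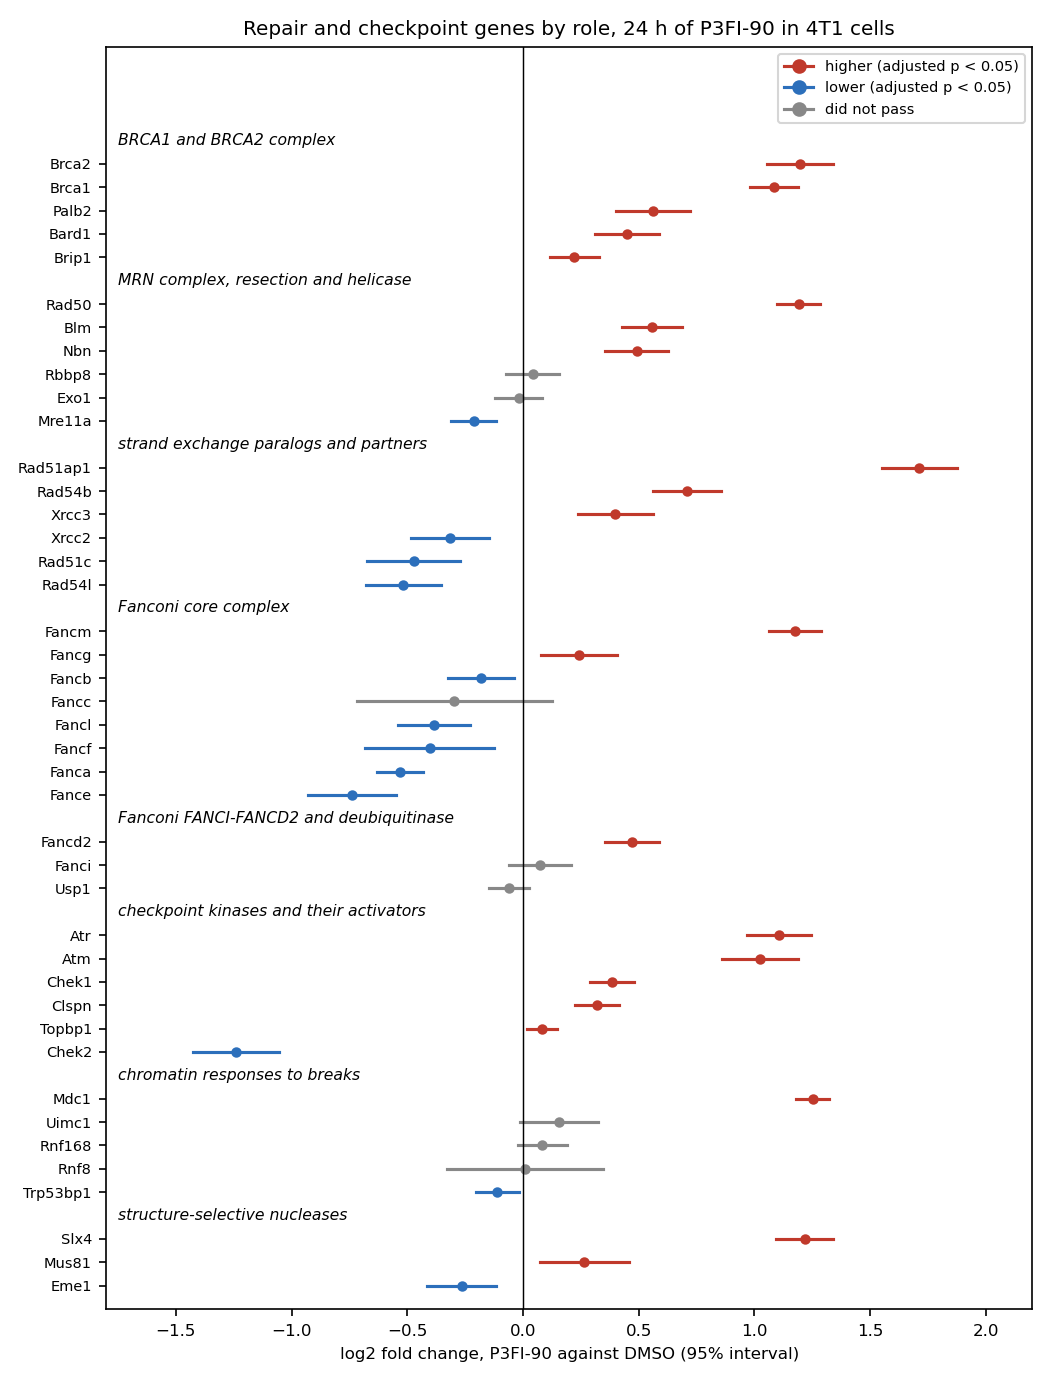
The log2 fold change of each of the 42 genes (points, x axis) is plotted with its 95% interval (bars), grouped by role, for 3 P3FI-90 against 3 DMSO libraries, with red for the 22 genes that rose, blue for the 12 that fell and grey for the 8 that did not pass. All 5 genes of the BRCA1 and BRCA2 complex lie right of 0, while 6 of the 8 Fanconi core genes lie left of it. The median of all genes tested was 0.013.

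All 5 genes of the BRCA1 and BRCA2 complex rose, where 39.9% of all genes tested did. Brca1 (ENSMUSG00000017146), which encodes the ubiquitin ligase and scaffold that directs breaks into recombination, had 2779, 2841 and 2477 normalized counts in the DMSO libraries and 5798, 5707 and 5672 in the P3FI-90 libraries. The lowest treated library was far above the highest control library. The means were 2699 ± 195 (SD, n = 3) and 5726 ± 64.9, a log2 fold change of 1.09 (SE 0.048, edgeR adjusted p = 6.58e-11). Brca2 (ENSMUSG00000041147), the partner of PALB2, had 1364, 1633 and 1635 normalized counts in DMSO and 3413, 3623 and 3583 in P3FI-90 libraries. The lowest of its control libraries was the first, and the groups did not overlap (log2 fold change 1.20, SE 0.066, edgeR adjusted p = 6.31e-10). Smaller rises were seen in Palb2, the bridge between BRCA1 and BRCA2 (log2 fold change 0.56), Bard1, the obligate partner of BRCA1 (0.45), and Brip1, a helicase bound by BRCA1 (0.22). With the trend in length and GC content removed, Bard1 was no longer called (log2 fold change 0.11, edgeR adjusted p = 0.132) and Brip1 turned to −0.25.

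Within the MRN complex the transcripts of the subunits moved apart. Rad50 (ENSMUSG00000020380), the ATPase that tethers the broken ends, had 2705, 2735 and 2531 normalized counts in DMSO and 5815, 6262 and 6118 in P3FI-90 libraries. All 3 treated libraries were more than 2-fold above every control library, and the log2 fold change was 1.19 (SE 0.043, edgeR adjusted p = 7.86e-12). Mre11a, the nuclease of the same complex, had 4181, 4249 and 4109 normalized counts in DMSO and 3590.3, 3413 and 3823 after P3FI-90, a fall by 0.21 on the log2 scale (SE 0.045, edgeR adjusted p = 6.46e-04). Its groups did not overlap, but the change was small, and scaling by total counts removed it (log2 fold change 0.0022). Nbn, which encodes NBS1 and recruits ATM, rose by a log2 fold change of 0.49, and Blm, a helicase of resection and of crossover suppression, by 0.56. Neither of the other resection genes passed the test. Rbbp8, which encodes CtIP, had a log2 fold change of 0.04 (95% interval −0.07 to 0.16), and Exo1, the exonuclease of long-range resection, one of −0.02 (−0.12 to 0.08).

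Of the 6 paralogs and partners that act in strand exchange, 3 rose and 3 fell, against 39.9% and 39.4% of all genes tested. Rad51ap1 (ENSMUSG00000030346), which stimulates strand exchange, had 1222, 969.5 and 993 normalized counts in DMSO and 3479, 3600.2 and 3376 in P3FI-90 libraries. This was the largest rise of the 42 genes, 3.28-fold, with the 3 treated libraries close together and the first control library above the other two. Its log2 fold change was 1.71 (SE 0.076, edgeR adjusted p = 5.98e-11). Rad54b, a translocase of strand exchange, rose by a log2 fold change of 0.71, and the paralog Xrcc3 by 0.40. Rad54l, the relative of Rad54b, had 1444, 1355 and 1535 normalized counts in DMSO and 971, 1120.3 and 937 in P3FI-90 libraries, so that it fell where Rad54b rose. The groups did not overlap, and the log2 fold change was −0.52 (SE 0.075, edgeR adjusted p = 1.98e-05). The paralogs Rad51c and Xrcc2 fell by 0.47 and 0.31 on the log2 scale, although the call of Xrcc2 was lost under scaling by total counts (edgeR adjusted p = 0.247).

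Among the 8 genes of the Fanconi core complex, 5 fell, 2 rose and 1 did not pass. Of all genes tested, 39.4% fell and 39.9% rose. Fanca, a subunit that pairs with FANCG, had 3602, 3613 and 3859 normalized counts in DMSO and 2585, 2583 and 2490.2 in P3FI-90 libraries. The treated libraries were close together at 69.2% of the DMSO mean, with no overlap (log2 fold change −0.53, SE 0.046, edgeR adjusted p = 7.71e-08). Fance, the subunit that contacts FANCD2, fell further, by 0.74 on the log2 scale (SE 0.087). Fancf, Fancl, the ubiquitin ligase subunit, and Fancb fell by 0.40, 0.38 and 0.18. The call of Fancf was lost under scaling by total counts (edgeR adjusted p = 0.197) and with the trend removed (0.0840), and Fancb turned to 0.032 under total counts and lost its call without the second DMSO library (0.0840) or the second P3FI-90 library (0.0664).

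In contrast, Fancm (ENSMUSG00000055884), the translocase that anchors the core complex to DNA, had 829.8, 842 and 838 normalized counts in DMSO and 1879, 1919 and 1870.1 in P3FI-90 libraries. The libraries of each group differed by little, and the treated ones were 2.26-fold higher (log2 fold change 1.18, SE 0.053, edgeR adjusted p = 7.41e-11). Fancg rose by a log2 fold change of 0.24. Fancc was the gene with the lowest counts per length and did not pass, at 305, 259 and 289.8 normalized counts in DMSO and 283, 150.2 and 264 after P3FI-90. Its second P3FI-90 library was far below the others, and the 95% interval of its log2 fold change, −0.72 to 0.12, does not exclude a fall as large as that of Fanca.

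Downstream of the core complex, Fancd2, the substrate whose ubiquitination marks crosslink repair, had 1424, 1592 and 1469.7 normalized counts in DMSO and 2092, 2068 and 2053 in P3FI-90 libraries. It rose in every treated library, by a log2 fold change of 0.47 (SE 0.053, edgeR adjusted p = 1.57e-06). Its partner Fanci (0.07, 95% interval −0.06 to 0.21) and Usp1, which removes the ubiquitin (−0.06, −0.15 to 0.03), did not pass.

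Both apical checkpoint kinases rose. Atr (ENSMUSG00000032409), which senses stalled forks, had 1817, 2174 and 2219.8 normalized counts in DMSO and 4493, 4539 and 4345 in P3FI-90 libraries, with the first control library the lowest. The treated libraries were close together and 2.15-fold higher on average (log2 fold change 1.11, SE 0.064, edgeR adjusted p = 1.08e-09). Atm (ENSMUSG00000034218), which senses breaks, had 1024, 1237 and 1326 normalized counts in DMSO and 2365, 2453 and 2477 in P3FI-90 libraries. The control libraries were again spread with the first the lowest, and the log2 fold change was 1.02 (SE 0.076, edgeR adjusted p = 1.61e-08), or 0.92 without the first DMSO library.

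The effector kinases of the checkpoint went in opposite directions. Chek2 (ENSMUSG00000029521), the kinase activated by ATM, had 1162, 956 and 1094 normalized counts in DMSO and 441, 442 and 479 in P3FI-90 libraries. It was the only one of the 42 genes that fell by more than 1 on the log2 scale, to 42.4% of the DMSO mean (log2 fold change −1.24, SE 0.086, edgeR adjusted p = 7.93e-09), and it fell under every alternative that was run, by between 1.03 and 1.32. Chek1, the kinase activated by ATR, rose by a log2 fold change of 0.38 (SE 0.045). Clspn, the adaptor that brings CHK1 to ATR, rose by 0.32, a call that was lost with the trend in length and GC content removed (0.067, edgeR adjusted p = 0.181). Topbp1, the activator of ATR, differed by only 0.08. Its call did not survive in 4 of 6 leave-one-out fits, those without the first or second DMSO library (edgeR adjusted p = 0.0711 and 0.0516) or the first or the third P3FI-90 library (0.0607 and 0.0710), nor under upper-quartile scaling (0.189), and the value turned to −0.21 with the trend removed.

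**Figure D2:**
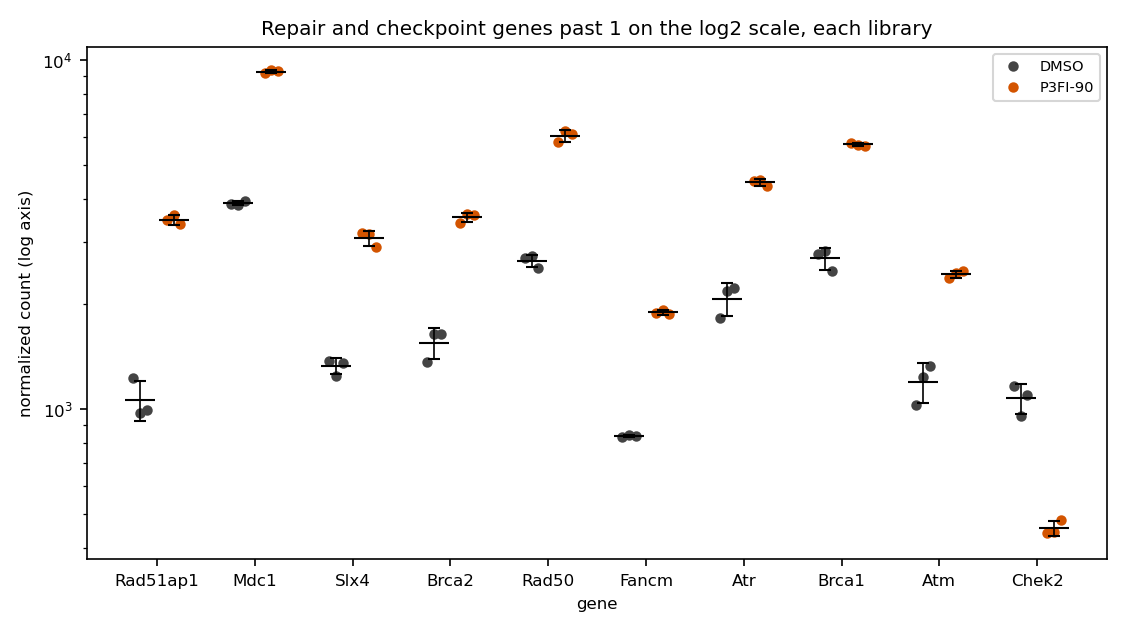
Normalized counts (y axis, log scale) are plotted for every library of the 10 genes whose log2 fold change passed 1 in size, with dark points for 3 DMSO and orange points for 3 P3FI-90 libraries, and with lines and bars for the mean and SD. The orange points lie above the dark ones in 9 genes and below them in Chek2, with no overlap in any of the 10. The genes were picked by their change in these same libraries, so this separation follows largely from the choice. Of all genes tested, 41% lay entirely above and 40.2% entirely below.

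Of the 5 genes of the chromatin response to breaks, 1 rose, 1 fell and 3 did not pass, where 39.9% of all genes rose and 39.4% fell. Mdc1 (ENSMUSG00000061607), the adaptor that binds phosphorylated histone H2AX at a break, had 3874, 3846 and 3941 normalized counts in DMSO and 9182, 9332 and 9279.8 in P3FI-90 libraries. The libraries within a group were almost level, and the log2 fold change of 1.25 (SE 0.033) had the smallest adjusted p of the 42 genes (3.63e-13 from the edgeR test). H2ax, the histone gene whose phosphorylated product MDC1 binds, is not among the 42 genes, and it fell (log2 fold change −3.28), with means of 5559 ± 372 in DMSO and 571 ± 37.8 normalized counts (SD, n = 3) in P3FI-90 libraries. Trp53bp1, which restrains resection, had 4408, 4702 and 4399 normalized counts in DMSO and 4386, 4064 and 4056 in P3FI-90 libraries. The highest treated library lay just below the lowest control library, and the log2 fold change was −0.11 (SE 0.043, edgeR adjusted p = 0.0304). Its call was lost without the second DMSO library (0.0909), the second P3FI-90 library (0.0887) or the third P3FI-90 library (0.0923) and with at least 10 counts required in every library (0.0644), and its value turned to 0.10 under scaling by total counts.

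The ubiquitin ligases that act after MDC1 did not pass. Rnf168 was higher in every treated library but with a log2 fold change of only 0.08 (edgeR adjusted p = 0.137). Rnf8 had 1608, 1551 and 1425 normalized counts in DMSO and 1737, 1015 and 1864 in P3FI-90 libraries, with the second P3FI-90 library well below the rest. Without that library its log2 fold change was 0.23 (edgeR adjusted p = 0.0071). Gm28043, an annotated gene on the same strand that shares 13.2% of the exon bases of Rnf8, had 3085 normalized counts in that library and 454 to 697 in the other 5, so the sum over Rnf8 and Gm28043 was 4100 there and 1955 to 2561 elsewhere. How the authors' counting divided reads between these overlapping genes is not given in the sources used here, and the values of Rnf8 are uncertain. Uimc1, which encodes RAP80 and brings BRCA1 to ubiquitinated chromatin, had a log2 fold change of 0.16 (95% interval −0.01 to 0.32) and passed without the third DMSO library (0.23, edgeR adjusted p = 0.0169) or the second P3FI-90 library (0.20, 0.0488).

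The nuclease genes again included 1 large rise. Slx4 (ENSMUSG00000039738), the scaffold that assembles the structure-selective nucleases, had 1374, 1245 and 1354 normalized counts in DMSO and 3185, 3162 and 2905 in P3FI-90 libraries. The treated libraries were all more than 2-fold above the controls (log2 fold change 1.22, SE 0.057, edgeR adjusted p = 1.18e-10). The subunits of the nuclease MUS81-EME1, which SLX4 binds, moved in opposite directions. Mus81 rose by a log2 fold change of 0.27, a call lost without the second DMSO library (edgeR adjusted p = 0.0617). Eme1 had 1438, 1265 and 1384 normalized counts in DMSO and 1095, 1226 and 1081 in P3FI-90 libraries, with no overlap but a small gap, and fell by 0.27 on the log2 scale (SE 0.069, edgeR adjusted p = 0.00294). Scaling by total counts ended this call (edgeR adjusted p = 0.506).

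The proteins of several of these pairs act as a complex or in sequence, so the ratio of their transcripts was taken within each library, per length of the longest transcript, which does not depend on how libraries are scaled. The 10 pairs were chosen after the values were seen, and the ratios are given as a description without a test. The ratio of Rad50 to Mre11a was 0.698 ± 0.0187 (SD, n = 3) in DMSO and 1.85 ± 0.143 in P3FI-90 libraries. Its change by 2.65-fold moved Rad50 from the scarcer to the more abundant transcript of that pair. The ratio of Brca1 to Bard1 was 2.07 ± 0.177 (SD, n = 3) in DMSO and 3.22 ± 0.207 in P3FI-90 libraries. For Brca2 to Palb2 it was 0.870 ± 0.0982 (SD, n = 3) in DMSO and 1.35 ± 0.0884 in P3FI-90 libraries. With merged exon lengths the ratio of Brca2 to Palb2 was already above 1 in DMSO, at 1.34 ± 0.151, and 2.08 ± 0.136 in P3FI-90 libraries, so which of these partners was the more abundant in DMSO depends on the length used, whereas the fold change of a ratio does not. The crossings of Rad50 to Mre11a (0.701 to 1.86) and of Chek2 to Atm (3.14 to 0.643) were also seen with merged exon lengths. The ratio of Fancm to Fance changed most of the rising ratios, by 3.77-fold, but Fancm remained the scarcer transcript at 0.188 ± 0.0182 (SD, n = 3) in DMSO and 0.710 ± 0.0646 in P3FI-90 libraries. The ratio of Chek2 to Atm was 3.93 ± 0.842 (SD, n = 3) in DMSO and 0.805 ± 0.0281 in P3FI-90 libraries, a change to 0.208 of the control value, and that of Chek1 to Atr was 4.77 ± 0.561 (SD, n = 3) in DMSO and 2.87 ± 0.228 in P3FI-90 libraries. The ratio changed 1.63-fold for Nbn to Mre11a, 1.32-fold for Fancd2 to Fanci and 1.45-fold for Mus81 to Eme1, and to 0.546 of the control value for Rad51c to Xrcc3. In none of the 10 pairs did the ratios of the groups overlap, but the pairs were chosen with these values known. Of all single genes tested, 41% lay entirely above the DMSO libraries and 40.2% entirely below them. The share for ratios of other pairs was not computed.

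**Figure D3:**
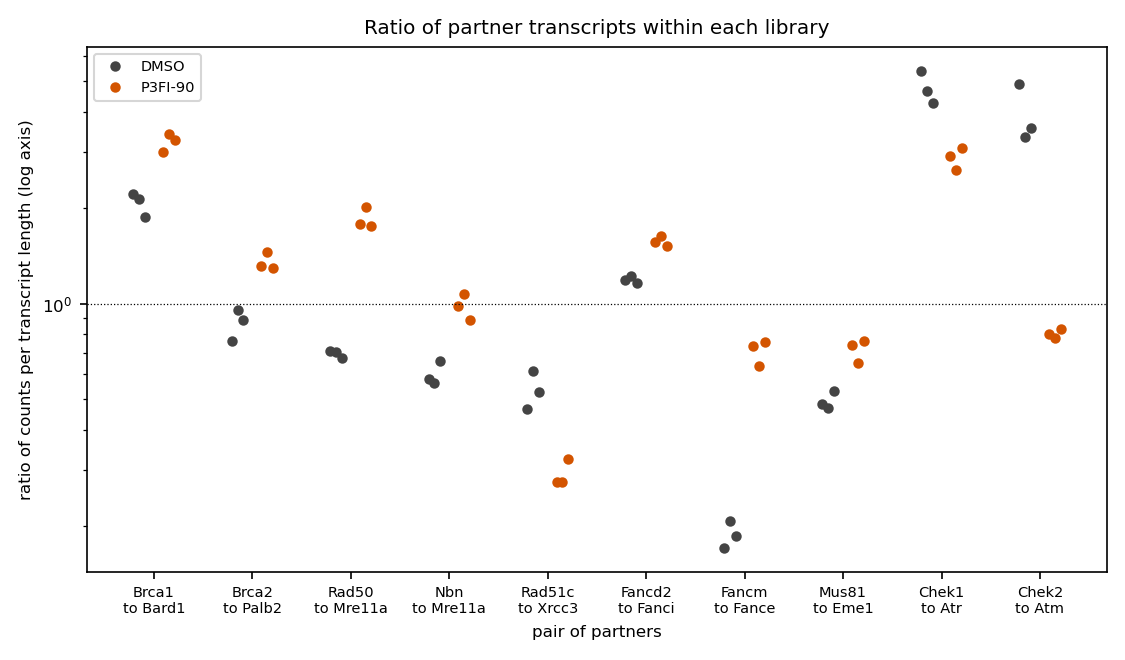
The ratio of counts per transcript length (y axis, log scale) is plotted for 10 pairs of partner genes in every library, with dark points for 3 DMSO and orange points for 3 P3FI-90 libraries, and the dotted line marks equal levels. The points of Rad50 to Mre11a and Brca2 to Palb2 move from below to above the line, those of Chek2 to Atm from above to below it. With merged exon lengths Brca2 to Palb2 lies above the line in both groups.

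By level per kilobase of the longest transcript, on the scale of normalized counts, the most abundant of the 42 transcripts in DMSO were Topbp1 (2365), Usp1 (2036), Chek1 (1208), Fanca (823) and Mre11a (738). The least abundant were Fancm (107) and Fancc (89.9). After P3FI-90, Topbp1 (2505), Usp1 (1954) and Chek1 (1577) were still the highest. They were followed by Rad51ap1 (1561), Mdc1 (1263) and Rad50 (1177), which had been at 475, 530 and 516 in DMSO. The order depends on the length used: with the merged length of all exons in place of the longest transcript, an alternative chosen after seeing the data, Usp1 was the highest in both groups, and in P3FI-90 libraries Mdc1 (1248) lay above Topbp1 (1166). The coefficient of variation between libraries was at most 13.2% in DMSO and 11.0% in P3FI-90 for 40 of the genes, whereas Fancc and Rnf8 reached 30.8% and 29.8% in P3FI-90.

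Of the 9 genes that rose past 1, all but Rad51ap1 have transcripts of at least 5153 bases, the length for Rad50. The median transcript length of the 42 genes was 4528 bases, against 3384 over all genes tested, and their median GC content was 46.2%, against 49.8%. Over 12263 genes with a length, Spearman's correlation of log2 fold change with transcript length was 0.23, and over the 42 genes it was 0.40. Across genes of the same 6 libraries these are descriptions, since genes are not independent replicates. With all genes divided by length into 5 bins of equal size, the median log2 fold change was −0.30 in the bin of the shortest and 0.31 in that of the longest transcripts, and 15 of the 42 genes were in the latter, with a median of 0.47. After a trend with length and GC content was removed, the log2 fold change of Rad51ap1, with a transcript of 2233 bases, stayed above 1, and those of the other 8 genes that had risen past it were between 0.43 and 0.99, each still called higher. Chek2, with a transcript of 2276 bases, kept a fall of more than 1. Under that alternative the median of the 42 genes was −0.05 and that of all genes −0.11.

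**Figure D4:**
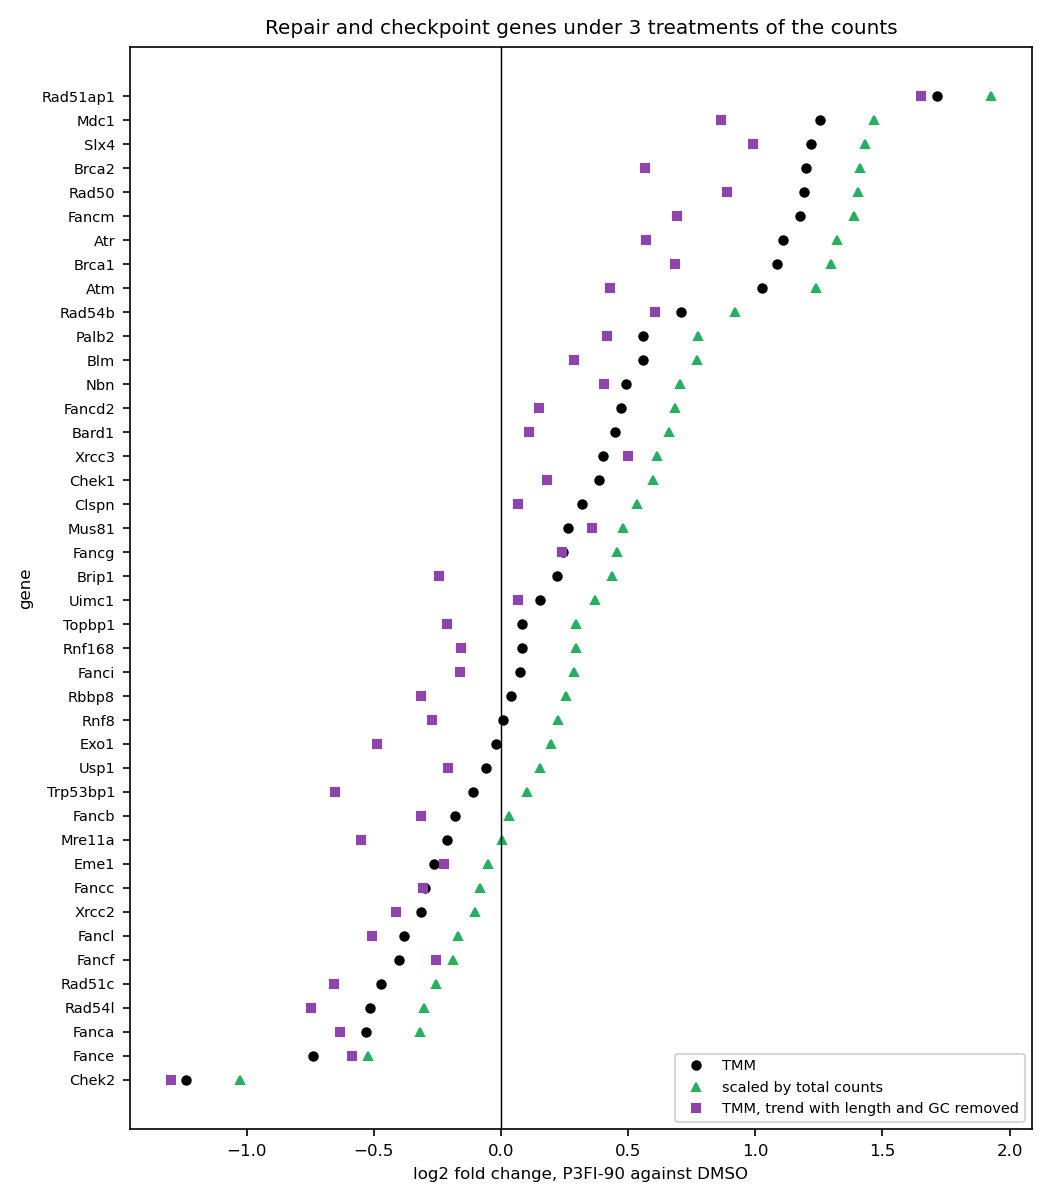
The log2 fold change (x axis) of each of the 42 genes is plotted under 3 treatments of the counts, with black points for TMM scaling, green triangles for scaling by total counts and purple squares for TMM after removal of the trend with transcript length and GC content. Total counts shift all genes right by a similar amount, and the removal of the trend moves the long transcripts left, while Rad51ap1 and Chek2 stay at the ends.

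Overlap with neighbouring genes limits several more values, since the strandedness of the counting is not given in the sources used here. Rad54b shares 35.9% of its exon bases with Fsbp, on the same strand, and Gm11832. Fsbp had 74.8 normalized counts in DMSO and 67.6 in P3FI-90 libraries on average. How reads shared by Rad54b and Fsbp were divided is not given in the sources used here. The exons of Rad54l overlap those of Lrrc41 on the opposite strand by 15.4%, and Lrrc41 fell too, by 0.43 on the log2 scale. Fancl overlaps Vrk2, which fell by 0.82, and Trp53bp1 overlaps Tubgcp4, which fell by 0.37. The exons of Fancc overlap those of Gm16133 and Aopep on the opposite strand by 18.6%. Aopep, at a mean of 1264 normalized counts in DMSO libraries, had a log2 fold change of −0.24. Fanci overlaps Polg (0.06), and Fancf overlaps Gas2 (0.26). The exons of Eme1 overlap those of Lrrc59 and Mrpl27 on the opposite strand by 10.7%. Lrrc59, at a mean of 14889 normalized counts in DMSO libraries, had a log2 fold change of 0.03, and Mrpl27 one of −0.02. Fanca overlaps Zfp276 and Mus81 overlaps Efemp2, and in both pairs the neighbour moved the other way from the gene described, with log2 fold changes of 0.78 for Zfp276 and −0.59 for Efemp2. Usp1 shares 21.4% of its 50-base windows with Gm5841, a gene with no row of its own in the table. The part of these overlaps in the results was not tested.

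Other genes of the same pathways rose and fell in equal number, 36.1% each, against 39.9% and 39.4% of all genes tested. Of 72 tested genes of a wider list (recombination mediators, clamp and fork factors, Fanconi accessory factors, shieldin and BRCA1-A subunits, RPA and helicases), 26 rose, 26 fell and 20 did not pass, and the median log2 fold change was 0.03. Besides H2ax, the largest changes were in Helq, a helicase of crosslink repair (1.77), and Sfr1, a cofactor of strand exchange (−1.57). Rad52, an annealing factor, and Polq, the polymerase of theta-mediated end joining, rose by 1.28 and 1.34, whereas Dna2 fell (−1.17). By more than 1 on the log2 scale, 5 of these 72 genes rose and 3 fell, against 12.7% and 10.6% of all genes tested. Scaling by total counts gave 40 higher and 17 lower genes of this list, where 6177 of all 12288 genes were higher and 3641 lower.

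Neighbouring processes are given for orientation, and differences between the lists were not tested. The background for each list is that 39.9% of all genes tested rose and 39.4% fell. Of 13 genes of non-homologous end joining, 5 rose and 5 fell, and the subunits of the DNA-dependent protein kinase diverged, with log2 fold changes of 1.58 for Prkdc, the catalytic subunit, and −1.89 for Xrcc6, which encodes KU70. Nhej1, which encodes the ligation factor XLF, had a log2 fold change of −1.19. Of 19 genes of nucleotide excision and mismatch repair, 7 rose and 7 fell, with the largest changes in Pms1 (−2.09), Uvssa (1.62) and Ercc8 (1.40). Of 34 genes of the replication fork and licensing, 19 rose and 13 fell, and the largest changes were falls in Rrm2 (−1.96), Pold2 (−1.62) and Tk1 (−1.56). Of 20 mitotic genes, 18 fell, led by Plk1 (−2.42), Cdc20 (−2.26) and Ccnb1 (−1.71), and 2 rose. Of 20 tested genes listed as p53 targets or as damage-induced, 13 rose and 4 fell, and the largest rises were in Gadd45g (4.49), Gadd45a (2.18) and Gadd45b (1.75). The falls were in Phlda3 (−1.09), Ei24 (−0.53), Sesn1 (−0.46) and Bax (−0.28), and Ccng1, Btg2 and Bbc3 did not pass. Whether p53 or DNA damage had a part in the changes of this list was not tested. A list of 20 genes for E2F factors and related regulators also held Trp53, the gene for p53, which is not an E2F factor. Of these 20 genes 14 rose and 4 fell, with the largest rises in Trp53 (1.59), Lin52 (1.48) and Lin54 (1.36).

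**Figure D5:**
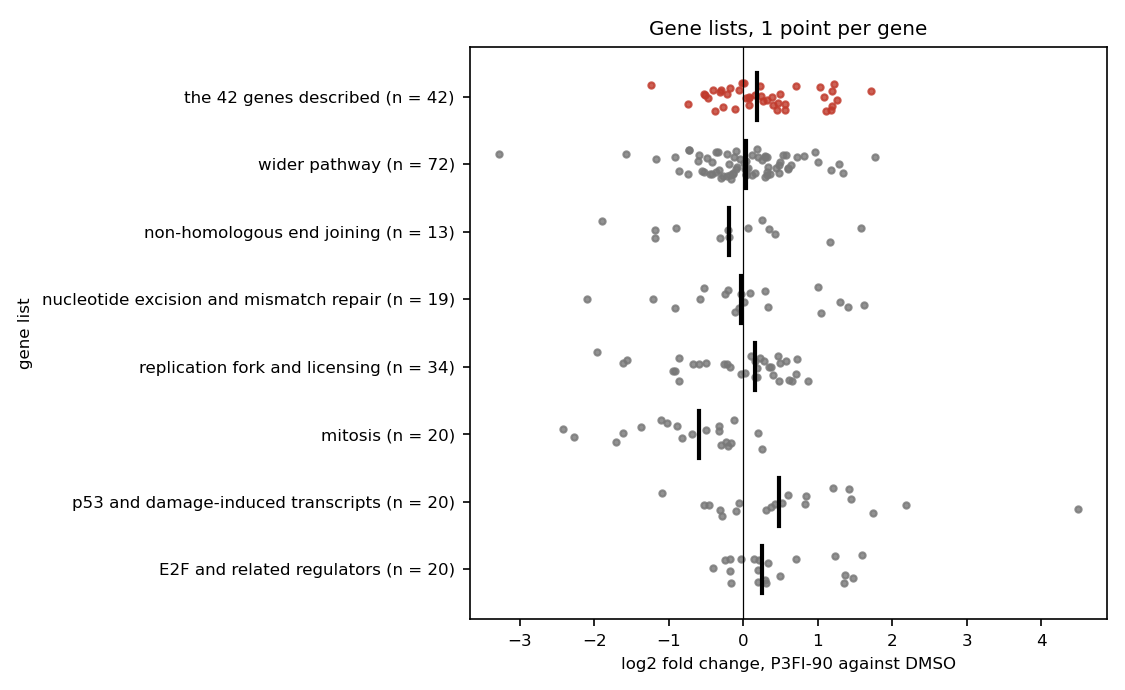
Each point is the log2 fold change (x axis) of 1 tested gene, with the 42 genes described in red, 7 other lists in grey and a black bar at the median of each list. The medians range from −0.59 for mitosis to 0.48 for p53 and damage-induced transcripts, with 0.19 for the 42 genes and 0.03 for the wider list of the same pathways.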

How the data were processed

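The authors deposited a table of read counts per gene, whole numbers without normalization, for 6 libraries from 4T1 cells (TRIzol extraction, Illumina mRNA-Seq kit, NovaSeq sequencing). The submitters' processing notes name CASAVA, HISAT2, StringTie and the build GRCm39, and the counting tool, the annotation release and the strandedness are not given in the sources used here. The study's methods name limma for differential expression, which was run as an alternative. The members and the gene lists were chosen with earlier results of these data known, so no test over a list is given.

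Of 22401 rows, 285 without a gene name (0.483% to 0.556% of the counts of a library) were left out. In R 4.3.3, low genes were removed by filterByExpr, libraries were scaled by TMM, and the groups were compared with edgeR 4.0.16 (quasi-likelihood F test, two-sided, Benjamini-Hochberg over 12288 genes, no covariate). Each normalized count is the count rescaled to the average effective library size, and the common biological coefficient of variation was 0.0648. With 3 libraries per group an exact permutation test could not give a two-sided p below 0.1. Equally numbered libraries did not deviate together (correlations of −0.049 to −0.027), so the numbers were not used as pairs. In counts simulated from these libraries (12183 genes), the test found 103 of 109 genes changed by 1 and 76 of 87 changed by 0.5 on the log2 scale, with 13 false calls. Only 200 genes were set to change in that simulation, whereas 79.3% of the genes tested were called in the data. The simulation therefore does not give the rate of false calls in these results, nor how the scaling behaves when most genes change.

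Every one of the 42 genes is accounted for. Library values are printed for those past 1 on the log2 scale and for the rise and the fall with the smallest p in each role group, and of each other list the 3 called genes with the largest change among those with at least 100 normalized counts in a group are named. Rad52, Polq, Dna2, Kdm3b, Gm28043 and the other overlapping neighbours were added after their values were seen. So were the genes of the p53 list that fell or did not pass, and the library values of Fancc and Rnf8. Transcript lengths, GC content and overlaps came from GENCODE M21 (GRCm38), which held 21995 of the gene identifiers of the table, and promoters from RefSeq (GRCm38.p6). No position on GRCm39 is given. The alternatives changed the scaling (DESeq2's size factors, upper quartiles or total counts), the filter (none, or a minimum of 10 counts per library), the test (limma-voom, limma 3.58.1 on log2(CPM + 1), or DESeq2 1.42.0) or the design (the replicate number as a block), removed a trend with length and GC content by splines with 4 degrees of freedom, kept the unnamed rows, or left out 1 library at a time.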

Additional observations from a re-analysis of the deposited data

How the results depend on the processing

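Over 17 alternative settings, 24 of the 42 genes kept their direction and their side of the threshold in each (17 higher, 6 lower and Fancc, which did not pass). Scaling by total counts, which raised the median of all genes by 0.21, gave 29 higher and 6 lower genes and a median of 0.40. For the wider list it gave 40 higher and 17 lower, while 6177 of all 12288 genes were higher and 3641 lower. Relative to all genes the median of the 42 was then 0.18, as under TMM. This scaling also turned Mre11a (0.0022), Exo1 (0.20), Fancb (0.032), Usp1 (0.15) and Trp53bp1 (0.10) to values above 0. The upper quartile gave a median of 0.15. Removing the trend with length and GC content gave a median of −0.046, with 18 higher and 18 lower genes and 1 rise past 1. Of all 12263 genes, 4100 were then higher and 5546 lower. The removal turned Brip1 (−0.25), Rbbp8 (−0.31), Fanci (−0.16), Topbp1 (−0.21), Rnf8 (−0.27) and Rnf168 (−0.16). Rnf8 also turned under the upper quartile (−0.030), limma-voom (−0.047), limma on log2(CPM + 1) (−0.036) and the replicate block (−0.027). The replicate block gave 22 higher and 11 lower genes, since Trp53bp1 lost its call (edgeR adjusted p = 0.0513). It changed no other call of the 42 genes. The numbers did not pair the libraries. When 1 library at a time was left out, the median ranged from 0.14 to 0.24, the higher genes from 20 to 24 and the lower from 10 to 12, and the values ranged from −0.00068 to 0.066 for Rbbp8, from −0.16 to 0.23 for Rnf8 and from −0.035 to 0.0054 for Exo1. Of the 8 genes that did not pass, all but Fancc passed under at least 1 alternative. The cause of these changes was not tested. Fancc had the widest interval of the 42 genes, with 150 normalized counts in the second P3FI-90 library and 259 to 305 in the other five. Fancf, at similar counts (201 to 302), had a smaller SE (0.13 against 0.20).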
